A study of Mus musculus with 6 samples.

Results

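The MYC and MAX network is a set of transcription factors that compete for a shared partner, MAX, and its levels were followed in NIH3T3 fibroblasts treated with extracellular vesicles (EVs). The 10 genes were chosen by name: Myc, Mycn, Max, Mxd1, Mxi1, Mxd3, Mxd4, Mnt, Mga and Tfap4. Each was 1 of the 20475 rows of the deposited table, and all 10 passed the filter on low values, as did 15025 rows in all. Against PBS, the largest rise among the 10 was that of Tfap4, 2.20-fold after MDA-MB-231 EVs, followed by Mycn, 1.91-fold after the same EVs. The largest fall was that of Mxi1, 1.83-fold after MCF10A EVs. Myc itself moved little: it was 1.10-fold lower after MDA-MB-231 EVs and did not pass the test after MCF10A EVs.

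NIH3T3 is a mouse fibroblast line, and all groups were the same line at passage 5 in medium with fetal bovine serum. The 2 PBS libraries came from cells given the saline alone, 2 libraries from cells given EVs of MCF10A (human breast epithelial cells that form no tumours), and 2 from cells given EVs of MDA-MB-231 (human breast cancer cells). RNA was taken 48 h after treatment. The labels name no separate cultures behind the 2 replicates of a group, so the p-values measure only the spread between these samples, which may be technical. For each gene, that spread was moderated towards that of genes of like level.

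MYC and MYCN are basic helix-loop-helix leucine zipper proteins that bind the E-box CACGTG as dimers with MAX and activate genes of growth, ribosome production and metabolism. MXD1, MXI1, MXD3 and MXD4, together with MNT, bind the same sites with MAX and recruit SIN3 and histone deacetylases, so they oppose MYC. MGA pairs with MAX in a Polycomb complex (PRC1.6) that silences germline genes. TFAP4 is a helix-loop-helix factor that binds CAGCTG without MAX, and its gene is a known direct target of MYC. In fibroblasts, serum induces Myc, whereas several MXD genes are linked to quiescence and differentiation.

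Libraries held 22451173 to 29315530 reads, and 3 reads corresponded to 0.102 to 0.134 counts per mega-read (CPM). Of the 12 fibroblast markers, 12 had reads in every library. Of 10 epithelial markers, 4 (Epcam, Krt18, Krt5 and Esrp1) had 0 reads in all 6 libraries, and the list summed to 28.5 to 48.7 normalised reads per library. Of 7 macrophage and leukocyte markers, Emr1 and Cd3e had 0 reads. That list summed to 89.5 to 104.0 after PBS, 91.2 to 99.8 after MCF10A EVs, with 47.0 to 50.8 after MDA-MB-231 EVs. The 5 endothelial markers, none of them at 0 in all libraries, summed to 354.0 to 362.5 after PBS, 290.9 to 337.7 after MCF10A EVs, with 148.7 to 187.8 after MDA-MB-231 EVs. The summed level of the fibroblast markers was 480771 to 481596 after PBS, 410068 to 422856 after MCF10A EVs, with 397216 to 406423 after MDA-MB-231 EVs, and the part of any of these lists in the changes below was not tested. All libraries were of the same fibroblast line, so these sums are of marker RNA in its cultures and do not count cells of other types. Cells were not counted, and RNA per cell was not measured.

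The promoters of 3 genes that fell with both kinds of EV, Mxd4, Mnt and Mxi1, are shown because the network's own E-box lies in front of Mxd4 and Mnt, whereas Mxi1, with the largest fall, has other motifs. The 250 bases before the start are given 5′ to 3′ on the gene's strand, from RefSeq on GRCm38.p6. Mxd4 lies at chr5:34187711-34187960 (minus strand), Mnt at chr11:74830674-74830923 (plus strand), and the first 2 of 3 listed starts of Mxi1 at chr19:53310256-53310505 and chr19:53329163-53329412 (plus strand). Capitals mark every CANNTG E-box in the first 3 sequences and ACGTG in the last.
Mxd4: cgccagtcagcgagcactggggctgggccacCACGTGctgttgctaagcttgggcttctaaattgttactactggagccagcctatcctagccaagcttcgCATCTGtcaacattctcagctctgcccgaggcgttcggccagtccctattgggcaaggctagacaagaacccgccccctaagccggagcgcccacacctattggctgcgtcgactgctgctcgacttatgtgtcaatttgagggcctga
Mnt: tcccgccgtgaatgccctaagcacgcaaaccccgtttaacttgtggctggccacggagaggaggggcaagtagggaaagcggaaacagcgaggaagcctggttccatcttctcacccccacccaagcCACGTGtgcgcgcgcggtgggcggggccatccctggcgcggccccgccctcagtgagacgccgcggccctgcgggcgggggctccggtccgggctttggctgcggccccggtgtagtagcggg
Mxi1, first start: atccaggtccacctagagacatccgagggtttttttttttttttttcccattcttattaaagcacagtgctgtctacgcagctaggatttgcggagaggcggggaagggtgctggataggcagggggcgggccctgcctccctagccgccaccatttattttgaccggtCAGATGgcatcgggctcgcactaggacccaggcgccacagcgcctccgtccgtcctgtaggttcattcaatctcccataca
Mxi1, second start: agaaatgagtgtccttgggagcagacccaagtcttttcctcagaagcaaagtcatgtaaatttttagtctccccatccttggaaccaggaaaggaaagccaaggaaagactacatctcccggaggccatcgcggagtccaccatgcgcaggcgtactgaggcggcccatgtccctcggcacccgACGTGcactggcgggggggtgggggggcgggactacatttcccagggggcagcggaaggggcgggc

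The E-box that MYC, MXD and MNT share with MAX, CACGTG, began 219 bases before the start of Mxd4 and 123 bases before that of Mnt. A further E-box, CATCTG, began 149 bases before the start of Mxd4. The first start of Mxi1 had the E-box CAGATG at 81 bases, and the second had no CANNTG in these 250 bases but had ACGTG, the core of the hypoxia response element, at 66 bases. The third start (chr19:53329445-53329694, not shown) had the E-box CACATG at 123 bases and ACGTG at 25 bases. These bases lie downstream of the first 2 starts, so the 2 motifs are upstream of the third start only. ACGTG and GCGTG were searched after the changes of Mxi1 had been seen, and every CACGTG also holds ACGTG.

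RefSeq promoters, 300 bases from 250 before to 50 after the start, matched 8 of the 10 genes (not Myc and Tfap4). With both strands searched, CACGTG lay in 3 of these 8 (Max, Mnt and Mxd4), or 37.5%, and in 9.36% of the 15369 genes with a promoter sequence. CAGCTG, the TFAP4 site, lay in 1 (Mga) and in 17.9% of all genes. Any CANNTG, which includes both, lay in 6 of 8 and in 71.7% of all genes. ACGTG lay in 5 of 8 (Max, Mga, Mnt, Mxd4 and Mxi1) and in 23.9% of all genes. GCGTG lay in 4 of 8 (Max, Mga, Mnt and Mxd1) and in 43.4%. Mga, called higher with both kinds of EV, held both motifs. With the 250 bases before the start alone, CACGTG remained in 2 (Mnt and Mxd4), against 7.98% of all genes. A match describes letters in this window, and binding was not measured.

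Values below are normalised reads, the deposited reads adjusted to a common library size, and changes are limma log2 changes of the value plus 1 with their standard error (SE). The threshold for a call was 0.05 for the p adjusted by Benjamini-Hochberg over all 15025 genes tested. After MDA-MB-231 EVs against PBS, 7 of the 10 genes were called, 3 higher and 4 lower, where 34.8% of all tested genes were called, 17.9% higher and 16.9% lower. The MCF10A EV comparison against PBS also called 7, of which 4 were higher and 3 lower, against 31.7% of all genes, 17.1% higher and 14.6% lower. Between the 2 EV groups 2 genes were called, Mxi1 higher and Myc lower after MDA-MB-231 EVs, against 16.9% of all genes, 6.84% higher and 10.1% lower. The median log2 change of the 10 genes was -0.05, 0.02 and 0.08 in the same order, and that of all tested genes was 0.01, 0.0001 and -0.0006. The comparisons against PBS share the PBS libraries. The shares above are over all tested genes, those of few reads included. With a minimum mean of 5 CPM, which left out Mycn, 5274 of 10104 genes were called after MDA-MB-231 EVs, 52.9% of them higher. After MCF10A EVs 4846 were called, 55.9% of them higher, and between the EV groups 2814. The members called were then 3 higher and 4 lower, 3 and 3, and 2 and 2. The gene lists below are set beside the shares of all tested genes, which are smaller than the shares under this minimum.

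**Figure D1:**
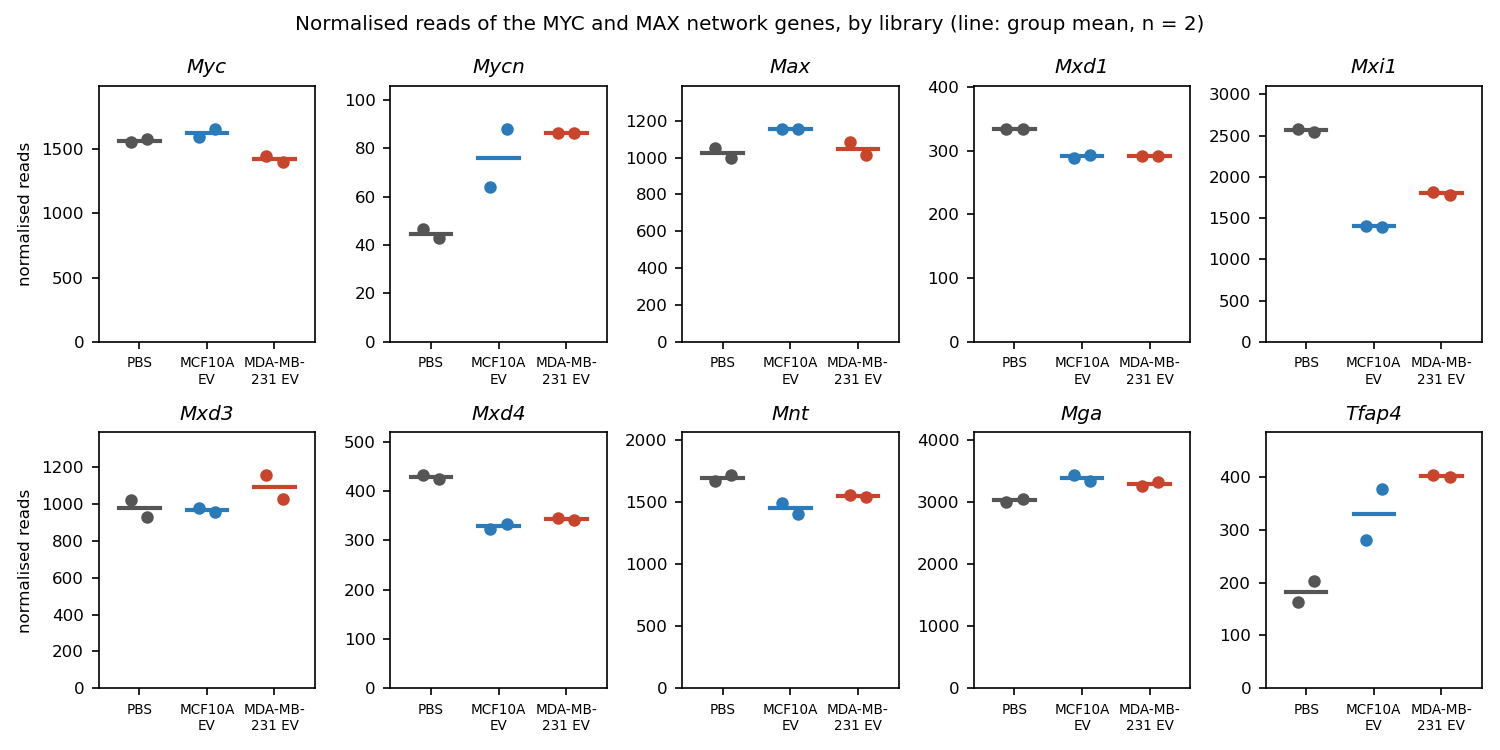
Normalised reads of each of the 10 genes (vertical axes, each starting at 0) in the 6 libraries, by group. Points are libraries and lines are group means of 2; the Mxi1 points of the 3 groups lie apart, at 2547 to 2585 after PBS, 1395 to 1407 after MCF10A EVs, with 1785 to 1819 after MDA-MB-231 EVs.

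Myc (chromosome 15), the growth factor-induced member of the MYC family, had 1556 and 1575 normalised reads after PBS, 1590 and 1658 after MCF10A EVs, and 1444 and 1396 after MDA-MB-231 EVs. The groups did not overlap: both MCF10A EV libraries lay above both PBS libraries, and both MDA-MB-231 EV libraries lay below. Against PBS, Myc fell by 0.14 ± 0.04 on the log2 scale (SE, n = 2 per group) after MDA-MB-231 EVs (limma adjusted p = 0.0168). After MCF10A EVs the log2 change was 0.05 ± 0.04 (limma adjusted p = 0.392). The direct comparison gave Myc 1.14-fold lower after MDA-MB-231 than after MCF10A EVs, a log2 change of -0.19 ± 0.04 (limma adjusted p = 0.00515).

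The small change of Myc against PBS depended on single libraries. After MDA-MB-231 EVs it was -0.15 (limma adjusted p = 0.0752) without PBS replicate 1, -0.13 (0.109) without PBS replicate 2 and -0.12 (0.120) without MDA-MB-231 EV replicate 2. Scaled by library totals it was -0.07 (limma adjusted p = 0.174), without the trend in eBayes the adjusted p was 0.0890, and DESeq2 gave an adjusted p of 0.0809. The difference between the EV groups was -0.16 (limma adjusted p = 0.0765) without MCF10A EV replicate 2 and -0.17 (0.105) without MDA-MB-231 EV replicate 2.

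Mycn (chromosome 12), the family member best known from neural and embryonic cells, had few reads, 43 to 103 before normalisation. Its normalised reads were 46.6 and 42.9 after PBS, 63.8 and 88.2 after MCF10A EVs, and 86.3 and 86.3 after MDA-MB-231 EVs. All 4 EV libraries lay above both PBS libraries, and the 2 EV groups overlapped. Mycn rose by 0.93 ± 0.20 on the log2 scale after MDA-MB-231 EVs (limma adjusted p = 0.00174) and by 0.73 ± 0.20, or 1.66-fold, after MCF10A EVs (0.0108). The log2 difference between the EV groups was 0.20 ± 0.20 (limma adjusted p = 0.572).

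The Mycn call after MDA-MB-231 EVs was narrowly lost without MDA-MB-231 EV replicate 1 (limma adjusted p = 0.0516) or replicate 2 (0.0507). After MCF10A EVs it was kept in 1 of 6 leave-outs, the one without MCF10A EV replicate 1, and the adjusted p ran up to 0.142. Without MCF10A EV replicate 2, that log2 change was 0.50. The MCF10A EV call was also lost without the trend (limma adjusted p = 0.0639) and with only the 2 groups compared (limma adjusted p = 0.0557). DESeq2 gave an adjusted p of 0.0603.

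Max (chromosome 12), the obligate partner of the MYC, MXD, MNT and MGA proteins, had 1054 and 998 normalised reads after PBS, 1157 and 1155 after MCF10A EVs, and 1084 and 1012 after MDA-MB-231 EVs. The MCF10A EV libraries lay above the other 4, whereas the PBS and MDA-MB-231 EV libraries overlapped. Max rose by 0.17 ± 0.05 on the log2 scale after MCF10A EVs (limma adjusted p = 0.0172). The log2 change after MDA-MB-231 EVs was 0.03 ± 0.05 (limma adjusted p = 0.699), and the difference between EV groups was -0.14 ± 0.05 (0.0711). The MCF10A EV call was lost without PBS replicate 2, MCF10A EV replicate 1 or MCF10A EV replicate 2, with an adjusted p of up to 0.168, and in 3 other alternatives.

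Mxi1 (chromosome 19), an MXD-family antagonist of MYC that is also a known target of the hypoxia-inducible factors, had the clearest fall. Normalised reads were 2585 and 2547 after PBS, 1407 and 1395 after MCF10A EVs, and 1819 and 1785 after MDA-MB-231 EVs. The 3 groups were fully apart: the MCF10A EV libraries were lowest, and the MDA-MB-231 EV libraries lay between them and PBS. Mxi1 fell by 0.87 ± 0.04 on the log2 scale after MCF10A EVs (limma adjusted p = 5.84e-10) and by 0.51 ± 0.04, or 1.42-fold, after MDA-MB-231 EVs (6.73e-08). It was 1.29-fold higher after MDA-MB-231 than after MCF10A EVs, a log2 change of 0.36 ± 0.04 (limma adjusted p = 8.52e-06). These 3 calls were kept under all 17 alternatives and left-out libraries tried.

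Mxd4 (chromosome 5), the MXD member linked to differentiating and resting cells, fell with both kinds of EV. Its normalised reads were 432 and 425 after PBS, 324 and 332 after MCF10A EVs, and 344 and 342 after MDA-MB-231 EVs. All 4 EV libraries lay below both PBS libraries. The log2 change was -0.38 ± 0.08, or 1.31-fold lower, after MCF10A EVs (limma adjusted p = 0.00131) and -0.32 ± 0.08, or 1.25-fold lower, after MDA-MB-231 EVs (0.00415), and both calls were kept under all 17 alternatives. Between the EV groups the log2 difference was 0.07 ± 0.08 (limma adjusted p = 0.643).

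Mxd1 (chromosome 6), the founding MXD antagonist, had 333 and 334 normalised reads after PBS, 289 and 293 after MCF10A EVs, and 291.5 and 292 after MDA-MB-231 EVs. The EV libraries lay below both PBS libraries, yet the log2 changes of -0.20 ± 0.08 after MCF10A EVs (limma adjusted p = 0.0915) and -0.19 ± 0.08 after MDA-MB-231 EVs (0.0893) missed the threshold. Both passed it without the trend in eBayes and with quantile scaling.

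Mxd3 (chromosome 13), the MXD member found in proliferating cells in S phase, had 1022 and 929 normalised reads after PBS, 980 and 958 after MCF10A EVs, and 1156 and 1025 after MDA-MB-231 EVs. The PBS and MCF10A EV libraries overlapped, and the MDA-MB-231 EV libraries lay above both other groups, the nearest pair being 1022 and 1025. The log2 change was 0.16 ± 0.06 after MDA-MB-231 EVs (limma adjusted p = 0.0594) and -0.008 ± 0.06 after MCF10A EVs (0.952). The first passed the threshold with edgeR, with library totals, with a minimum mean of 5 CPM and with the replicate number as a block.

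Mnt (chromosome 11), the widely expressed MAX partner that represses MYC targets, fell with both kinds of EV. It had 1671 and 1715 normalised reads after PBS, 1488 and 1405 after MCF10A EVs, and 1553 and 1537 after MDA-MB-231 EVs, and the 3 groups did not overlap. The log2 change was -0.23 ± 0.04 after MCF10A EVs (limma adjusted p = 8.47e-04), which was kept under all 17 alternatives. It was -0.13 ± 0.04 after MDA-MB-231 EVs (limma adjusted p = 0.0265), and this call was lost when any PBS or MDA-MB-231 EV library was left out, with an adjusted p of up to 0.170. The call was also lost with library totals, with DESeq2 and without the trend.

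Mga (chromosome 2), the scaffold of PRC1.6, rose slightly: 3001 and 3047 normalised reads after PBS, 3428 and 3335 after MCF10A EVs, and 3256 and 3324 after MDA-MB-231 EVs. All 4 EV libraries lay above both PBS libraries. The log2 change was 0.16 ± 0.03 after MCF10A EVs (limma adjusted p = 0.00166) and 0.12 ± 0.03 after MDA-MB-231 EVs (0.00969). The latter was lost on leaving out PBS replicate 1 or, in turn, MDA-MB-231 EV replicate 2, with an adjusted p of up to 0.0874, and with DESeq2. Both were lost without the trend.

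Tfap4 (chromosome 16) rose most. It had 163 and 203 normalised reads after PBS, 281 and 378 after MCF10A EVs, and 403 and 400 after MDA-MB-231 EVs. The 3 groups did not overlap, and the 2 MCF10A EV libraries differed more from each other than the libraries of the other groups did. The log2 change was 1.14 ± 0.13 after MDA-MB-231 EVs (limma adjusted p = 6.38e-06), kept under all 17 alternatives, and 0.84 ± 0.13, or 1.79-fold, after MCF10A EVs (1.78e-04), lost only without the trend (0.0617). The log2 difference between the EV groups, 0.30 ± 0.13, missed the threshold (limma adjusted p = 0.143) and passed it narrowly with edgeR (0.0492).

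**Figure D2:**
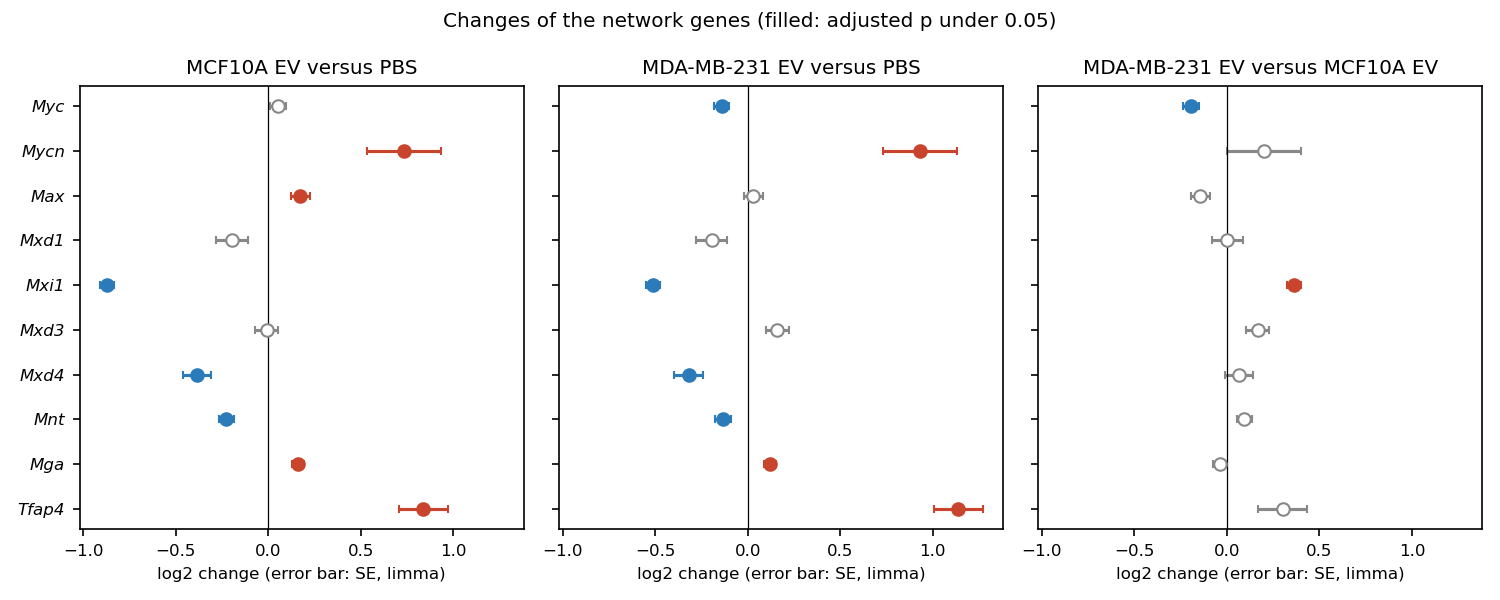
Log2 changes of the 10 genes (points, with the SE of limma as bars) in the 3 comparisons; filled points have an adjusted p under 0.05. Tfap4 and Mycn lie farthest to the right and Mxi1 farthest to the left in both comparisons against PBS.

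Levels between genes were compared per length, as normalised reads per kilobase of exon and per mega-read (RPKM). After PBS, Myc was the most abundant at 23.3 ± 0.20 (SD, n = 2), followed by Mxd3 at 16.6 ± 1.12, Mxi1 at 15.2 ± 0.16 and Mnt at 14.8 ± 0.27. Max stood at 11.5 ± 0.44 and Mga at 7.97 ± 0.09. Tfap4 at 2.91 ± 0.46, Mxd4 at 2.04 ± 0.02, Mxd1 at 1.91 ± 0.004 and Mycn at 0.549 ± 0.03 formed the low end. No neighbours in this order overlapped between libraries. The means of Mxi1 (15.1 and 15.3 in the libraries) and Mnt (14.6 and 15.0) differed by less than the sum of their SDs, and those of all other neighbours by more. With the longest transcript as the length, Max moved above Mxi1 and Mnt, and Mxd4 moved above Tfap4, so those ranks depend on the gene model.

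Summed over its members in RPKM, the MXD family (Mxd1, Mxi1, Mxd3 and Mxd4) stood at 36.7 and 34.9 after PBS, 28.2 and 27.9 after MCF10A EVs, and 33.8 and 31.4 after MDA-MB-231 EVs. The MYC family (Myc and Mycn) stood at 23.7 and 24.0, 24.4 and 25.7, and 22.5 and 21.8 in the same order. The groups did not overlap for either sum, and MCF10A EVs had the lowest MXD sum and the highest MYC sum.

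The ratio of the MXD sum to the MYC sum, from which a library's scaling cancels, was 1.55 and 1.46 after PBS, 1.16 and 1.08 after MCF10A EVs, and 1.50 and 1.44 after MDA-MB-231 EVs. The MCF10A EV libraries lay below the other 4, and the PBS and MDA-MB-231 EV libraries overlapped. With the longest transcript the group means were 1.80, 1.34 and 1.75. Mxi1 made up 42.5 ± 1.10% of the MXD sum after PBS, 29.6 ± 0.09% after MCF10A EVs, with 32.8 ± 1.29% after MDA-MB-231 EVs (SD, n = 2). Mycn made up 2.30 ± 0.15%, 3.70 ± 0.70% and 4.77 ± 0.11% of the MYC sum. Relative to Max, the MXD sum was 3.11 after PBS, 2.16 after MCF10A EVs, with 2.77 after MDA-MB-231 EVs. These sums are of RNA, and no test was applied to them.

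**Figure D3:**
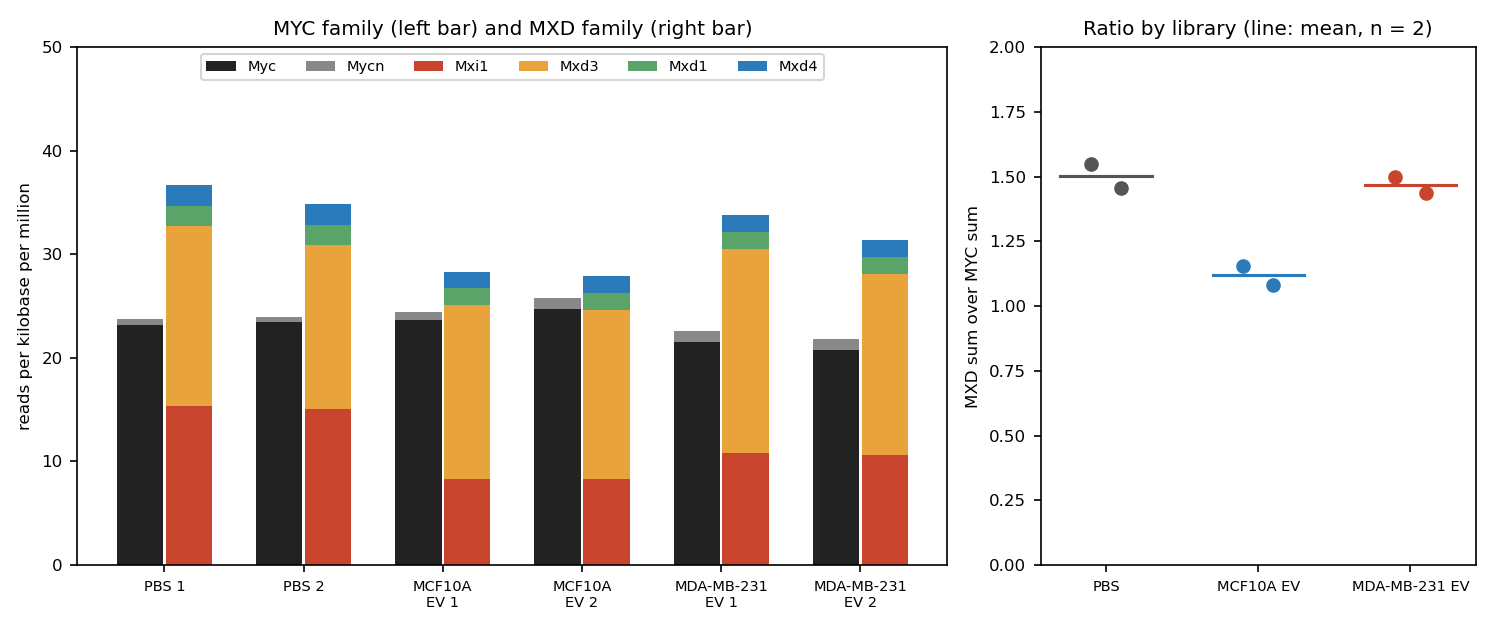
Left, levels on the RPKM scale for the MYC family (left bar of each pair) and MXD family (right bar) in each library, stacked by gene; right, the ratio of the sums by library, with group means of 2 as lines. The ratio is 1.08 and 1.16 after MCF10A EVs and 1.44 to 1.55 in the other 4 libraries.

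Some exon bases of 3 genes are shared with a gene on the opposite strand in the GENCODE vM21 annotation: 194 bases of Mxi1 (2.84%) with Gm10197, 105 of Mxd3 (4.43%) with Prelid1 and 514 of Mxd4 (6.06%) with Gm42846. Which strand was counted is not given in the sources used here, so reads of such bases cannot be assigned.

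Most of the genes tested that MYC is known to activate were called higher with each kind of EV, and some of the growth and metabolism genes were called lower. Among nucleolar and ribosome-production genes, 29 of 29 tested were higher after MCF10A EVs and 25 of 29 after MDA-MB-231 EVs. None was lower in either, and 4 were not called after MDA-MB-231 EVs. Of all tested genes, 17.1% were higher and 14.6% lower after MCF10A EVs, and 17.9% and 16.9% after MDA-MB-231 EVs. Median log2 changes of the nucleolar genes were 0.46 and 0.35. Dkc1, the pseudouridine synthase of the box H/ACA particles, had 798 and 775 normalised reads after PBS, 1375 and 1515 after MCF10A EVs, and 1305 and 1282 after MDA-MB-231 EVs. The groups did not overlap, and Dkc1 rose 1.83-fold after MCF10A EVs (limma adjusted p = 1.69e-08) and 1.64-fold after MDA-MB-231 EVs (5.78e-08). Rrp9, a U3 particle protein, rose 1.78- and 1.52-fold, Grwd1, a ribosome assembly factor, rose 1.75-fold after MCF10A EVs, and Utp20 rose 1.55-fold after MDA-MB-231 EVs. Between the EV groups, 12 of the 29 nucleolar genes were lower after MDA-MB-231 EVs and 0 were higher, with a median of -0.15. Of all tested genes, 10.1% were lower and 6.84% higher there. Over 17 alternatives, 22 to 29 nucleolar genes were higher after MCF10A EVs and 20 to 28 after MDA-MB-231 EVs. The lower count between EV groups was 0 without the trend, 6 without MCF10A EV replicate 1, and 3 without MCF10A EV replicate 2 or either MDA-MB-231 EV library.

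Of 37 growth and metabolism genes activated by MYC, 32 rose and 2 fell after MCF10A EVs (median 0.38). After MDA-MB-231 EVs 29 rose and 5 fell (median 0.33). The shares were 86.5% and 5.41% after MCF10A EVs, against 17.1% and 14.6% of all tested genes. After MDA-MB-231 EVs they were 78.4% and 13.5%, against 17.9% and 16.9%. Shmt1, a folate enzyme that supplies 1-carbon units, rose 1.90-fold after MCF10A EVs and 1.84-fold after MDA-MB-231 EVs. Umps, of pyrimidine synthesis, rose 1.48- and 1.46-fold. Rcc1, the exchange factor of Ran, rose 1.44-fold after MCF10A EVs, and the nucleotide kinase Nme1 rose 1.43-fold after MDA-MB-231 EVs.

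Other members of that list fell. Ldha, lactate dehydrogenase A, which hypoxia-inducible factors also activate, fell 1.44-fold after MCF10A EVs and 1.36-fold after MDA-MB-231 EVs. Slc3a2, the heavy chain of the amino acid exchanger that Slc7a5 completes, fell 1.12- and 1.39-fold, and Ccnd2, cyclin D2, fell 1.20-fold after MDA-MB-231 EVs. Odc1, the first enzyme of polyamine synthesis, moved in opposite directions, with a log2 change of 0.21 after MCF10A EVs (limma adjusted p = 0.00185) and -0.23 after MDA-MB-231 EVs (0.000749). So did Slc7a5, at 0.17 (limma adjusted p = 0.00340) and -0.18 (0.00141). Between EV groups 2 of 37 were higher and 10 lower after MDA-MB-231 EVs (median -0.04), Odc1, Slc7a5 and Srm among the lower. These are 5.41% and 27.0%, against 6.84% and 10.1% of all tested genes. The 10 became 0 without the trend, 3 without MDA-MB-231 EV replicate 2, 5 without MCF10A EV replicate 2 and 6 without MCF10A EV replicate 1, and the median was 0.005 with quantile scaling.

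Of 16 tested genes in the list chosen as MYC-repressed, 7 fell and 3 rose after MCF10A EVs (median log2 change -0.10). After MDA-MB-231 EVs 7 fell and 2 rose (median -0.15). The shares were 43.75% and 18.75% after MCF10A EVs, against 14.6% and 17.1% of all tested genes. After MDA-MB-231 EVs they were 43.75% and 12.5%, against 16.9% and 17.9%. The rising shares were near or below those of all genes, so nothing about the list is read from the rises. The 3 that rose after MCF10A EVs became 1 without the trend, 1 without PBS replicate 2 or either MCF10A EV library and 2 without PBS replicate 1 or either MDA-MB-231 EV library. Thbs1, thrombospondin 1, was lower in all 4 EV libraries, at 138144 and 138937 normalised reads after PBS, 89308 and 86964 after MCF10A EVs, with 69519 and 67832 after MDA-MB-231 EVs. It fell 1.57-fold after MCF10A EVs (limma adjusted p = 3.38e-10) and 2.02-fold after MDA-MB-231 EVs (1.03e-12). Cdkn1a, the cell-cycle inhibitor p21, fell 1.39-fold after MDA-MB-231 EVs, and Ndrg1, a stress- and hypoxia-induced gene, fell 1.33-fold after MCF10A EVs. Gadd45a rose 1.52-fold after MCF10A EVs, and Id2 and Gas1 rose 1.45- and 1.37-fold after MDA-MB-231 EVs. Whether MYC represses or activates Id2 or the other listed genes in these cells was not tested. Ddit3, a stress-response factor, moved in opposite directions, 1.14-fold higher after MCF10A EVs and 1.35-fold lower after MDA-MB-231 EVs.

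Of 20 coactivators and chromatin partners of MYC, 8 were higher and 2 lower after MCF10A EVs (median 0.07). After MDA-MB-231 EVs 12 were higher and 2 lower (median 0.17). The shares were 40% and 10% after MCF10A EVs, against 17.1% and 14.6% of all tested genes. After MDA-MB-231 EVs they were 60% and 10%, against 17.9% and 16.9%. Against PBS, Trrap was called higher only after MDA-MB-231 EVs, and Kat5 (TIP60) and Cdk9 (P-TEFb) in neither comparison. Kat2a, the acetyltransferase GCN5, rose 1.42- and 1.38-fold. Ruvbl1, a helicase of the TIP60 complex, rose 1.38-fold after MCF10A EVs, and Hcfc1 rose 1.20-fold after MDA-MB-231 EVs. Kat2b, the close relative of Kat2a, fell 1.14- and 1.18-fold, and Ccnt1, cyclin T1, fell 1.11- and 1.22-fold. Without PBS replicate 2 the higher count after MDA-MB-231 EVs was 8, and without the trend the counts were 4 and 8.

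Corepressors that MXD and MNT recruit, the SIN3 and NCOR complexes, were higher for 5 and lower for 1 of 17 after MCF10A EVs (median 0.03). After MDA-MB-231 EVs they were higher for 8 and lower for 0 (median 0.08). The shares were 29.4% and 5.88% after MCF10A EVs, against 17.1% and 14.6% of all tested genes. After MDA-MB-231 EVs they were 47.1% and 0%, against 17.9% and 16.9%. With the 5 CPM minimum, 4846 of 10104 genes were called after MCF10A EVs, 55.9% of them higher. The share of all genes called higher was larger there, so nothing about the list is read from its MCF10A EV counts. Rbbp7 rose 1.14- and 1.20-fold, and Rbbp4 1.14- and 1.16-fold, both histone chaperones. Hdac1, a deacetylase, rose 1.14-fold after MCF10A EVs, and the SIN3 subunit Sap30 rose 1.22-fold after MDA-MB-231 EVs. Without the trend these counts of higher genes fell to 2 and 3 of 17. After MDA-MB-231 EVs it was 4 or 5 without any 1 of the PBS and MDA-MB-231 EV libraries, and after MCF10A EVs it was 3 without MCF10A EV replicate 2.

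Regulators of MYC protein stability were higher for 7 and lower for 2 of 18 after MCF10A EVs (median 0.08). After MDA-MB-231 EVs they were higher for 6 and lower for 2 (median 0.04). The shares were 38.9% and 11.1% after MCF10A EVs, against 17.1% and 14.6% of all tested genes. After MDA-MB-231 EVs they were 33.3% and 11.1%, against 17.9% and 16.9%. Skp2, a ubiquitin ligase subunit, rose 1.32- and 1.43-fold, and Set, an inhibitor of protein phosphatase 2A, rose 1.32- and 1.40-fold. Gsk3b, the kinase that marks MYC for degradation, fell 1.15-fold with both. Fbxo32, a ubiquitin ligase subunit known from muscle atrophy, fell 1.69-fold after MCF10A EVs. Without either MDA-MB-231 EV library the higher count after those EVs was 4, and without the trend it was 4 in both comparisons. The protein itself was not measured.

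Partners of MGA in PRC1.6 were higher for 5 and lower for 1 of 12 tested in each comparison against PBS, with medians of 0.05 and 0.12. The shares were 41.7% and 8.33%. Of all tested genes, 17.1% were higher and 14.6% lower after MCF10A EVs, and 17.9% and 16.9% after MDA-MB-231 EVs. Leaving out 1 library gave 2 or 3 higher after MCF10A EVs, whichever library it was. After MDA-MB-231 EVs it gave 3 without either PBS library or MDA-MB-231 EV replicate 2, and 2 without MDA-MB-231 EV replicate 1. Without the trend it was 1 and 2. Tfdp1 rose 1.22-fold after MCF10A EVs and 1.25-fold after MDA-MB-231 EVs, E2f6 rose 1.24-fold after MCF10A EVs, and the ubiquitin ligase Rnf2 fell 1.13- and 1.10-fold. Of 16 germline genes that this complex silences, 8 passed the filter on low values and limma, edgeR and DESeq2 called 0 in either comparison against PBS. At an unadjusted p under 0.05, limma gave 3 lower after MCF10A EVs and, for MDA-MB-231 EVs, 0, and the medians were -0.48 and -0.05. Of all 15025 tested genes, 6084 and 6421 had such a p in either direction. A stricter filter on low values left no germline gene to test, so these medians rest on genes of few reads. In the extended network of 3 tested genes, Mlx and Mlxip, whose proteins form a glucose-responsive dimer, fell 1.24- and 1.10-fold after MDA-MB-231 EVs (median -0.31). Of these 2 calls, 1 was lost without the trend and 1 with library totals. A call also depended on PBS replicate 2 and on either MDA-MB-231 EV library. After MCF10A EVs limma, edgeR and DESeq2 called 0 of them, with 0 at an unadjusted p under 0.05 in limma (median -0.04).

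Regulators known to act on the Myc promoter were higher for 5 and lower for 4 of 20 after MCF10A EVs, and higher for 8 and lower for 3 after MDA-MB-231 EVs. The first pair is 25% and 20%, near the 17.1% and 14.6% of all tested genes, and the second is 40% and 15%, against 17.9% and 16.9%. Nothing about the list is read from these counts, and 2 members are given for their own values. Fubp1, which binds the far upstream element of Myc, rose 1.30- and 1.45-fold. Egr1, an immediate early factor, fell 2.06- and 2.29-fold, from 1880 and 2017 normalised reads after PBS to 957 and 929 after MCF10A EVs and 880.4 and 819 after MDA-MB-231 EVs. No EV library reached the lower PBS value. The count of higher genes after MDA-MB-231 EVs was 3 without the first replicate of either PBS or MDA-MB-231 EVs and 5 without the second replicate of either or without the trend. The medians were 0.01 and 0.09.

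Proliferation markers rose as well, 14 of 14 with each kind of EV, where 17.1% and 17.9% of all tested genes were higher. Median log2 changes were 0.28 for MCF10A EVs and 0.45 for MDA-MB-231 EVs. Mcm5, a replicative helicase subunit, rose 1.45- and 1.56-fold. In contrast to the nucleolar genes, 8 of 14 were higher after MDA-MB-231 than after MCF10A EVs and 0 were lower. Of all tested genes, 6.84% were higher and 10.1% lower there. The 8 became 0 without the trend or without MDA-MB-231 EV replicate 1, 1 without MDA-MB-231 EV replicate 2, 2 without MCF10A EV replicate 1 and 5 without MCF10A EV replicate 2. The part of cell division in the changes of the network was not tested.

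**Figure D4:**
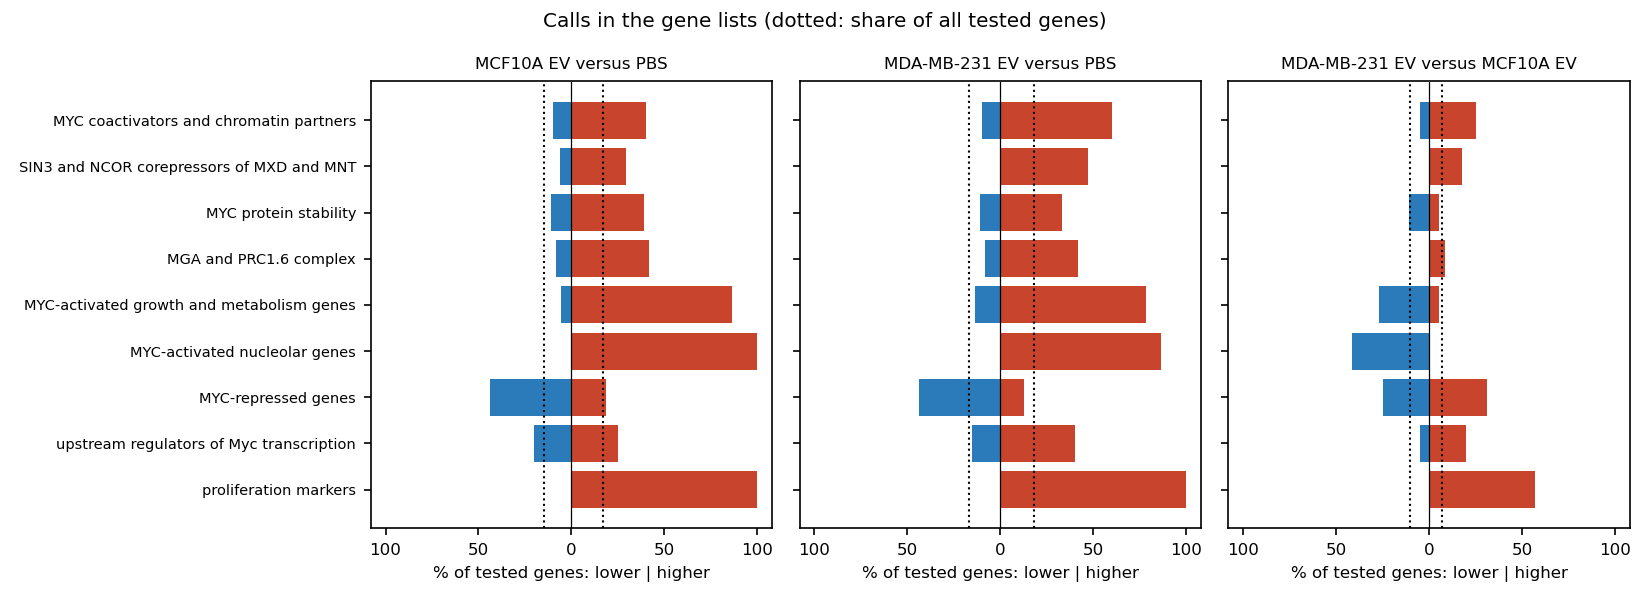
Share of tested genes called lower (left of 0) and higher (right of 0) in 9 gene lists and 3 comparisons, in percent; dotted lines are the shares of all tested genes. The nucleolar list reaches 100% higher for MCF10A EVs and 86.2% for MDA-MB-231 EVs, and its bar lies on the lower side between the EV groups, at 41.4%.

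Genes with CACGTG in the 300-base window were described beside all genes with a promoter sequence. After MCF10A EVs, 24.4% of 1223 such genes were higher and 13.4% lower, against 17.5% and 14.2% of 11276. After MDA-MB-231 EVs the shares were 23.7% and 16.4%, against 18.2% and 17.2%. Genes with CAGCTG, 2040 in all, were higher in 14.2% and lower in 15.5% after MCF10A EVs, and higher in 14.8% and lower in 19.0% after MDA-MB-231 EVs. Promoters also differ in base composition, which was not taken into account.

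The genes most like 4 of the members over the 6 libraries were searched for in the 9825 genes that averaged 5 CPM or more, by the root mean square (RMS) difference of log2 values centred on PBS. Nearest to Myc were Ltbp1 at 0.015, Fxr2 at 0.017 and Dcbld2 at 0.018, with log2 changes of 0.03 to 0.06 after MCF10A EVs and -0.15 to -0.14 after MDA-MB-231 EVs. Nearest to Mxi1 were Prelp, a matrix proteoglycan, at 0.048, Arrdc3, an arrestin-like adaptor, at 0.076 and Plod2, a collagen lysyl hydroxylase, at 0.079. For Mxd4 they were Tmem65, P2rx4 and Yod1, at 0.024 to 0.025. Tfap4 had no neighbour as near: Atoh8 at 0.178, Cyp1b1 at 0.180 and Amotl2 at 0.205 were closest. Its own replicates lay apart, at centred values of -0.16 and 0.16 after PBS and 0.62 and 1.05 after MCF10A EVs. That spread enters the distance, so the distance does not show an unusual response.

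**Figure D5:**
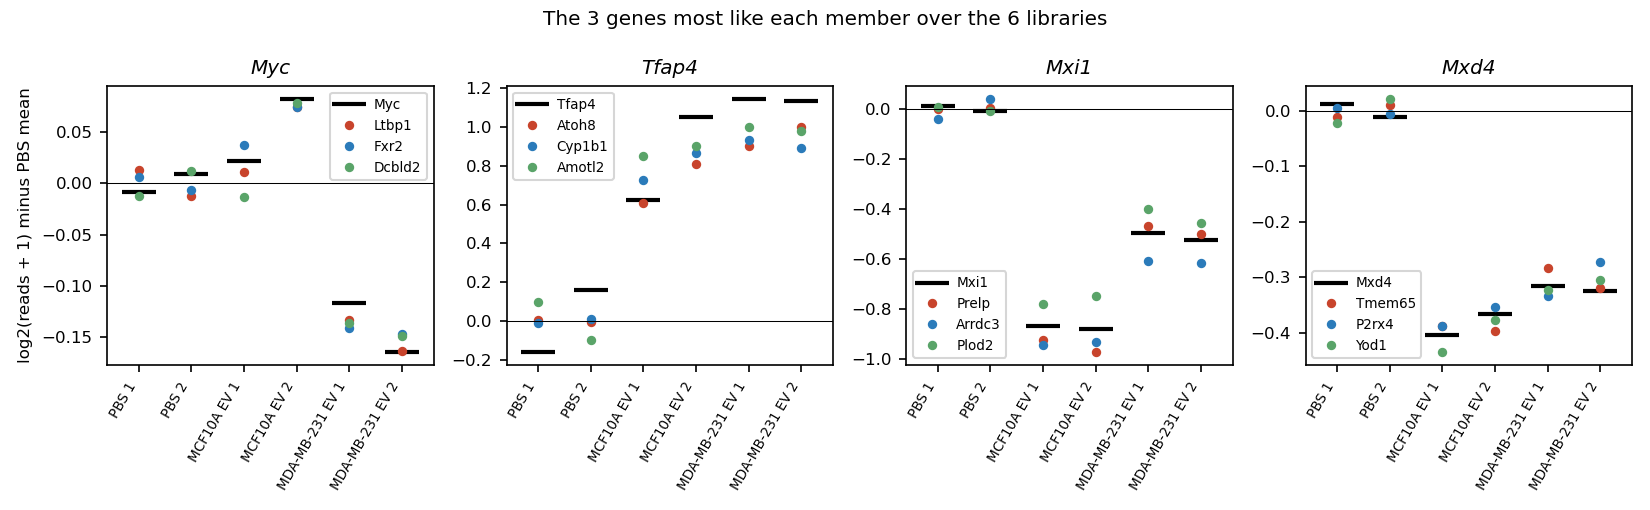
Log2 of normalised reads plus 1, minus the PBS mean, in each of the 6 libraries for 4 members (black dashes) and the 3 genes most like each (coloured points). Prelp, Arrdc3 and Plod2 follow the order of Mxi1, lowest after MCF10A EVs and intermediate after MDA-MB-231 EVs.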

How the data were processed

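RNA was measured by stranded mRNA-seq in 6 NIH3T3 libraries, 2 per group. Per the submitters' processing notes, TopHat2 and edgeR were used and the build named is hg19, although the deposited table lists mouse genes. The mouse build, counter, annotation, versions and strand setting were not given in the sources used here. The authors deposited a normalised signal per gene: edgeR pseudo-counts at a common library size, not whole numbers, as found from the values. Inverting that adjustment gave whole reads for 122850 of 122850 values (100%) within a relative 1e-06.

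limma 3.58.1 in R 4.3.3 (lmFit, eBayes with trend) was fitted to log2(value + 1), keeping the 15025 genes that reached 1 normalised read in 2 or more libraries. One model of 6 libraries left 3 residual degrees of freedom, to which eBayes added 11.5 prior degrees of freedom from all tested genes. An SE therefore rests largely on genes of like level and is not the gene's own replicate spread alone. Benjamini-Hochberg adjustment was over all genes, with a threshold of 0.05. The plan foresaw counts or normalised values but not pseudo-counts, which were treated as normalised. Alternatives were pseudocounts of 0.5 and 5, no filter, a mean of at least 5 CPM, no trend, quantile scaling, library totals, edgeR 4.0.16 and DESeq2 1.42.0 on the recovered reads, only the 2 groups compared, a replicate block, and leaving out each library. On the recovered reads edgeR called 5554 genes with MDA-MB-231 EVs and 5160 with MCF10A EVs, each set against PBS, and 2987 between the EV groups.

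The genes, lists and tests were chosen with earlier results of these data known. Named list genes were up to 3 higher and 3 lower per list and comparison with PBS, of a mean of at least 5 CPM and groups apart, by size of change, and the report gives the main ones. Odc1, Slc7a5, Srm, Trrap, Kat5 and Cdk9 fall outside this rule and were named after their values were seen. Of the lists, L3mbtl2, Prmt1 and Gnl3 were not matched to the table. Lengths and overlaps came from GENCODE vM21 (GRCm38). Tests were checked on simulated data. SDs and floors cover the spread between libraries and counting error only, and replicate libraries differed by more than counting error (chi-square per degree of freedom 1.65 to 2.29).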

Additional observations from a re-analysis of the deposited data

Results flagged for a closer look

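Myc was 1 result to look at again. Both MCF10A EV libraries (1590 and 1658 normalised reads) lay above both PBS libraries (1556 and 1575), and both MDA-MB-231 EV libraries (1444 and 1396) lay below them, so the 2 kinds of EV lay on opposite sides of PBS. The direct difference, MDA-MB-231 EV minus MCF10A EV, was -0.19 on the log2 scale (limma adjusted p = 0.00515). That call was lost without the trend (limma adjusted p = 0.108) and, as given above, depended on single libraries. So did the fall against PBS after MDA-MB-231 EVs. Against PBS the log2 change after MCF10A EVs, 0.05, did not pass the test (limma adjusted p = 0.392).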

How the results depend on the processing

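Of 507 values of the 10 genes under alternatives, 446 kept direction and side of the threshold, 38 lost a call, 15 gained one and 8 changed sign. None of these 8 was called. Library totals gave 0.014 for Mxd3 after MCF10A EVs against PBS and 0.0029 for Mga between EV groups. The others changed sign when 1 library was left out, over which the log2 change ran from -0.077 to 0.061 for Mxd3 after MCF10A EVs, from -0.019 to 0.079 for Max after MDA-MB-231 EVs and, between EV groups, from -0.030 to 0.43 for Mycn and from -0.0080 to 0.013 for Mxd1.

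Without the trend, 3346, 2231 and 378 genes were called against PBS after MDA-MB-231 EVs, against PBS after MCF10A EVs and between EV groups, and DESeq2 called 1516 between EV groups. The members called lower after MDA-MB-231 EVs were 2 with library totals and with DESeq2. Those called higher after MCF10A EVs were 0 without the trend and 2 with DESeq2. Between EV groups, 2 were higher and 2 lower with the 5 CPM minimum, 3 were higher with library totals and with edgeR, 2 were higher with the replicate block, and 0 were lower without the trend. With library totals, 67.8%, 61.2% and 61.7% of the called genes were higher, against 51.4%, 54.0% and 40.4%. The cause was not tested.

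Leaving out 1 library each gave 3476 to 4828 called genes after MDA-MB-231 EVs, 2810 to 3983 after MCF10A EVs and 721 to 1698 between EV groups. The members higher and lower were 1 to 3 and 2 to 4 after MDA-MB-231 EVs, 2 to 3 and 3 after MCF10A EVs, and 1 and 0 to 1 between EV groups. Where 1 library of a group remained, it was assumed to vary like the other groups. Replicate numbers did not pair the libraries (correlations of deviations -0.01 to 0.03 over 10104 genes), so calls under the replicate block are no sign of a weaker or stronger effect. Mycn, with 43 to 103 reads, had no value under the 5 CPM minimum.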
